A study of Homo sapiens and Mus musculus with 33 samples.

Results

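The genes described here are the cytosolic ribosomal protein genes, which encode the protein components of the ribosome that translates messages made in the nucleus. They were chosen by name alone: symbols starting with RPL or RPS followed by a number (with A or X where the name carries it), together with RPLP0, RPLP1, RPLP2 and RPSA, and the same symbols in title case in mouse. The rule found 77 genes among 35805 rows of the HCT116 RNA table, of which 43 encode proteins of the large subunit, 31 of the small subunit and 3 of the P stalk, and the same 77 genes among 25965 rows of the mouse colon RNA table. A further HCT116 row named RPL41 lay on chromosome 7 inside DGKI and over no annotated RPL41 gene. It was set aside. Peaks of histone modification were counted with a gene when they lay in it or within 2 kb, and a start peak is one that overlaps the 1 kb on either side of the annotated start. There were 110 such peaks among 40266 in HCT116, 94 among 30338 for H3K18cr in colon and 99 among 27035 for H3K4me3 in colon.

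HCT116 is a human colon carcinoma line. It was treated for 18 h with 5 µM MS275 (entinostat), an inhibitor of class I histone deacetylases, or with the same amount of its solvent DMSO. RNA was sequenced from 4 libraries of each treatment, chromatin immunoprecipitated for crotonylation (H3K18cr) or acetylation (H3K18ac) of histone H3 lysine 18 from 3 libraries of each treatment and mark, and 1 input library was made for each treatment. Colon epithelium was isolated from untreated C57BL/6 mice, whose age and genotype the labels do not give, with 3 RNA libraries, 2 H3K18cr libraries with 2 inputs, and 3 H3K4me3 libraries with 1 input. By the study's methods, the HCT116 RNA libraries were biological replicates and each colon RNA library came from its own mouse. For HCT116 ChIP the methods name fewer biological replicates than there are libraries here, while a figure legend of the study gives n = 3. It is therefore not clear which libraries came from separate cultures, and their p-values measure a spread that may in part be technical. For colon ChIP the methods speak of pooled colons, while the study elsewhere speaks of separate mice for H3K18cr and of biological replicates for H3K4me3, so that it is not clear whether the colon ChIP replicates are separate animals. Scaled ChIP reads give how a mark is shared out over the genome and not its total amount in the cell, so that every change in H3K18cr or H3K18ac given here is relative to the rest of the library.

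A ribosome holds nearly all of its proteins in equal number, and their genes are known for being transcribed together at high and balanced rates in dividing cells. Their messages begin with a run of pyrimidines, the TOP motif, through which the growth regulator mTOR and the RNA-binding protein LARP1 control their translation. Surplus RPL5 and RPL11 bind the ubiquitin ligase MDM2, and inherited loss of function in several of these genes causes anaemia. The genes are also known for leaving many processed copies across mammalian genomes, from which short sequencing reads are hard to tell apart. In the intestine, ribosome production is high in the dividing cells of the crypt.

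The starts of the human genes share a sequence that the rule did not use. RefSeq promoters (GRCh38.p14, 250 bases before to 50 after the start) matched 62 of the 77 human genes. The entry nearest the annotated start was taken for each gene. Of these entries, 60 lay within 20 bases of that start, that of RPL6 lay 320 bases away and that of RPS29 12330. An unbroken pyrimidine run of at least 8 bases that covered some base from the second before to the third after the start was present in 48 of the 62 (77.4%), against 8.73% of 35116 promoters, and its median length was 11 bases against 3. The 35116 promoters include alternative starts of the same gene, so that they were not chosen in the same way as the 62. The letters CGGAAG, the core bound by ETS-family factors, were found on either strand in 39 of the 62 (62.9%, against 19.5% of all promoters), and GGGCGG, the core of the Sp1 site, in 35 (56.5%, against 45%). AAGATGGC, the core of the YY1 site, was found in 6 (9.68%, against 2.89%), TATAAA in 5 (8.06%, against 11.5%), CCAAT in 20 (32.3%, against 34.6%) and CACGTG, the E box of MYC, in 3 (4.84%, against 7.26%). Neighbouring words may share letters at their ends, as CGGAAG and AAGATGGC do in AAG, and each was counted on its own. The 90 bases before and 12 bases from the start are given for the 3 genes whose start peaks fell most in H3K18cr on the log2 scale (RPL10, RPL39, RPS13), and for RPL11, RPLP1 and RPL38, whose peaks did not pass the test for that mark; the choice was made after these values were seen. Capitals mark the pyrimidine run over the start and CGGAAG or its complement CTTCCG, and each is read 5′ to 3′ on the strand of the gene.
RPL10, chrX:154398287-154398388, plus strand: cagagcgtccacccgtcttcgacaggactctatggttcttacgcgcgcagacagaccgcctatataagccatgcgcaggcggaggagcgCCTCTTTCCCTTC
RPL39, chrX:119791619-119791720, minus strand: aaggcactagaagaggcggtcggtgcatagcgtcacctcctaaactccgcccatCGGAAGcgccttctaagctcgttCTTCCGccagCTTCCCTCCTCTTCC
RPS13, chr11:17077656-17077757, minus strand: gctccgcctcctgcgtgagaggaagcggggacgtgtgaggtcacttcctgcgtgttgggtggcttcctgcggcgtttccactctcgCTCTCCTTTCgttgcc
RPL11, chr1:23691716-23691817, plus strand: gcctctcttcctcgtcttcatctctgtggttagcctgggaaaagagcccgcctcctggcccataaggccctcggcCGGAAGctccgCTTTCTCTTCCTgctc
RPLP1, chr15:69452728-69452829, plus strand: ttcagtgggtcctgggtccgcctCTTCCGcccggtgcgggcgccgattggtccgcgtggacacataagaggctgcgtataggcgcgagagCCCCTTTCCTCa
RPL38, chr17:74203588-74203689, plus strand: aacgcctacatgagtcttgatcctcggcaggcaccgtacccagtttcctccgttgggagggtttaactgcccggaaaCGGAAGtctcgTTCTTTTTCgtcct
All 6 stretches carry a pyrimidine run over the start, that of RPL39 running on past the bases shown. The ETS letters stand within these bases in RPL39, RPL11, RPLP1 and RPL38 and elsewhere in the promoter of RPL10, and the promoter of RPS13 has none.

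In HCT116 treated with DMSO, 68 of the 77 genes lay within 2-fold of their median level, whereas in colon only 25 did and the highest level was 2925 times the lowest. The HCT116 libraries held 35608533 to 53415604 counts and the colon libraries 8166406 to 10707901. The 77 genes took 7.49, 8.46, 10.2 and 8.27% of all counts in the DMSO libraries, 6.40, 8.21, 10.6 and 7.61% in the MS275 libraries and 2.18, 2.13 and 2.33% in the colon libraries. A larger part of the mouse coding sequences recurs elsewhere in the genome, as given below, so the HCT116 and colon shares are not like for like. Replicate 3 was the highest in both HCT116 groups, and it also held the most mitochondrial reads (9.28% with DMSO and 10.3% with MS275, against 1.57 to 3.19% in the other libraries), whose part in the result was not tested. Of the 12 epithelial markers, 6 reached 1 CPM, a count scaled to library size, in DMSO-treated HCT116 (CA1, CDX1, KRT20, LGR5, MUC2 and VIL1 did not), and all 12 in colon, where the 8 immune and 8 stromal markers summed to at most 49.5 and 51.4 CPM. The summed stromal markers were higher in the MS275 libraries (25.9 to 27.3 CPM) than in the DMSO libraries (13.9 to 16.4 CPM), with 4 of 8 at 1 CPM or more in both groups, and their part in the results was not tested. HCT116 is a cultured cell line. In the bulk colon samples, fewer cells of a type and less RNA per cell cannot be told apart.

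Levels between genes were compared as CPM per kb of coding sequence, because the annotated 3′ ends of a few genes run for several kb. The median over the 77 genes was 1964 in DMSO-treated HCT116 with quartiles of 1525 and 2693. The large-subunit genes had a median of 1873, the small-subunit genes 1970 and the P stalk genes 4143. Highest were RPLP1, of the P stalk that recruits elongation factors, at 4676 ± 1045 (SD, n = 4), RPL13A at 4675 ± 546, RPL13 at 4237 ± 563, RPL8, of the peptidyl-transferase region, at 4160 ± 721, and RPLP0, the scaffold of the stalk, at 4143 ± 740. These neighbours differed by less than the spread between libraries. RPL21 stood lowest at 18.7 ± 3.28, far below RPS26 at 472, RPL36A at 504, RPL9 at 584 and RPL22 at 1060. Per kb of exon, the 5 lowest were RPL21, RPL37, RPL14, RPS26 and RPL22 and the 5 highest RPLP0, RPS2, RPS18, RPL8 and RPS12, so that 3 and 2 genes were in both lists.

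In colon the median was 272 with quartiles of 80 and 728, and 8 of the 77 genes lay below 0.1 times that median. Rps27 was the lowest at 1.79 (3, 5 and 5 counts in the 3 libraries), although its protein is a fixed part of the small subunit. It was followed by Rpl17 at 5.41 (23, 36 and 27 counts), Rps6, the substrate of S6 kinase, at 5.88 (52, 31 and 38 counts), Rps13 at 7.77 and Rps23 at 9.17, and these 5 were also the lowest per kb of exon. Rplp0 held 16878, 20885 and 24290 counts (2286 CPM per coding kb), Rplp1 2825 and Rps21 2150 CPM per coding kb. Rpl41, which encodes the shortest of the proteins, stood highest at 5223 on this scale but at 673 per kb of exon, where Rplp1, Rplp0, Rpl8 and Rps15 were among the 5 highest. The ratio of the 90th to the 10th percentile over the genes was 58.3 in colon and 2.80 in HCT116. Across the 77 genes the levels of the 2 tables had a Spearman correlation of 0.33, a description over genes that share their libraries.

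The low values in colon went with coding sequence that recurs elsewhere in the genome. Every 50-base window of each coding sequence was looked up, on both strands, in the genome outside the gene. A median of 91.3% of the windows of a mouse gene (GRCm38) had an exact copy elsewhere, against 48.5% for a human gene (hg38), and all windows did for 29 mouse and 8 human genes. The 29 mouse genes had a median level of 71.9 CPM per coding kb and ran from 1.79 at Rps27 to 5223 at Rpl41. The 9 mouse genes with fewer than 50% of windows repeated lay between 716 and 2150. In HCT116 the 8 genes with every window repeated had a median of 1237, and the 40 with fewer than 50% lay between 1219 and 4676. Of the 15 lowest genes, 14 in colon and 6 in HCT116 had every window repeated. The Spearman correlation of level and repeated share was -0.78 in colon and -0.44 in HCT116 (n = 77 genes in each). The study kept uniquely mapped reads, and whether that sets these levels was not tested. One 50-base coding stretch from the middle of the longest coding exon is given for the low genes Rps27, Rps6 and RPL21 and for Rplp0 and RPLP0, to show a repeated beside an unrepeated stretch; mouse stretches are on GRCm38 and human ones on hg38.
Rps27, chr3:90212965-90213014, minus strand: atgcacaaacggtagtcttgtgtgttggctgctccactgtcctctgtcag
Rps6, chr4:86854806-86854855, minus strand: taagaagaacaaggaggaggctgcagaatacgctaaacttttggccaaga
Rplp0, chr5:115560848-115560897, plus strand: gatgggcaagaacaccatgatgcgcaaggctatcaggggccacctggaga
RPL21, chr13:27256235-27256284, plus strand: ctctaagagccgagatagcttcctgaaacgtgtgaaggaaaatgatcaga
RPLP0, chr12:120198622-120198671, minus strand: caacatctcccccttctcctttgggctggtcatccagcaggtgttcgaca
The stretch of Rps27 recurred at 3 places on 3 other chromosomes, that of Rps6 at 7 places on 7 chromosomes and that of RPL21 at 5 places on 5 chromosomes, and those of Rplp0 and RPLP0 recurred nowhere, although 60.3% and 65.5% of all windows of Rplp0 and RPLP0 did recur. Values of genes with repeated sequence are to be read as uncertain in both tables.

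**Figure D1:**
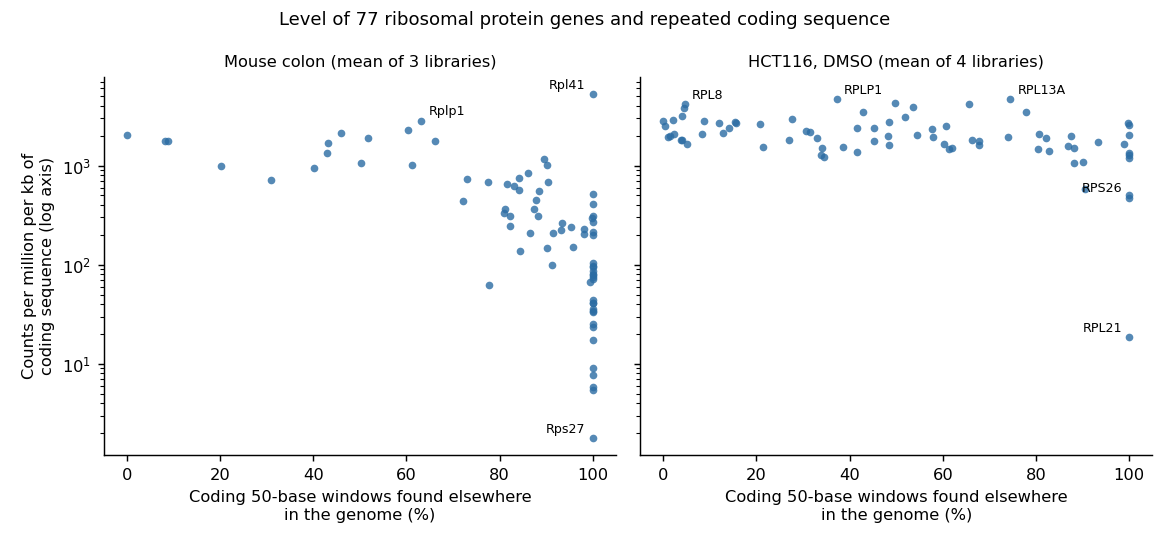
Level of each of the 77 genes (mean CPM per kb of coding sequence, log axis) against the share of its 50-base coding windows found elsewhere in the genome, in DMSO-treated HCT116 and in mouse colon epithelium. In colon the 9 genes with fewer than 50% of windows repeated lie between 716 and 2150. The lowest gene, Rps27 at 1.79, and the highest, Rpl41 at 5223, both have every window repeated. In HCT116 most genes lie close to the median of 1964.

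The next question was whether inhibition of histone deacetylases changed these messages. None of the 77 was called in the comparison of 4 MS275 with 4 DMSO libraries (edgeR quasi-likelihood test, Benjamini-Hochberg adjusted p under 0.05), none had an unadjusted p under 0.05 (background 6.6% of 14961 genes), and DESeq2 called none. That comparison called 1 of the 14961 genes tested (0.00668%). The log2 change had a median of -0.07 over the 77 genes, against 0.01 over all genes, and 65 of the 77 were negative. Values ran from -0.66 for RPL41 to 0.39 for RPS28, and the median standard error of 0.24 exceeded most of them. After RPL41, the most negative were RPL22 at -0.26, RPL9 at -0.23, RPS2 at -0.20 and RPS23, at the decoding centre, at -0.19. Also among the 5 most positive were RPL11 at 0.08, RPL21 at 0.06 and RPL28 at 0.06. The groups overlapped for every one of the 77 genes (background 1.89% of genes without overlap and lower, 3.48% without overlap and higher). The sign of the median rested on single libraries, since it was 0.10 without DMSO replicate 3, 0.04 without MS275 replicate 1, 0.001 without MS275 replicate 4 and -0.31 without MS275 replicate 3.

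Libraries with the same replicate number deviated together, and with the number as a term in the fit 3 of the 77 genes fell and none rose (background 6.55% of genes lower and 7.83% higher). RPL9, a large-subunit protein beside the factor-binding region, had 290, 302, 486 and 294 CPM with DMSO and 237, 259, 438 and 238 with MS275, a log2 change of -0.24 (SE 0.06, adjusted p = 0.017). RPS2, at the entry of the message into the small subunit, went from 2487, 3021, 4453 and 2506 to 1985, 2602, 3914 and 2374 CPM (log2 change -0.20, SE 0.05, adjusted p = 0.017). RPL27A, of the large subunit, went from 935, 1090, 1536 and 983 to 780, 926, 1482 and 877 CPM (log2 change -0.18, SE 0.05, adjusted p = 0.042). Each was lower in all 4 pairs although the groups overlapped, and replicate 3 was the highest library of both groups. In this fit the median over the 77 genes was -0.10 against 0.01 over all genes, 70 were negative, and 20 had an unadjusted p under 0.05 (background 29.2%). Neither count was above the background share of the genes tested.

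The pairs differed. The median log2 difference of the 77 genes was -0.26 in pair 1, where 71 genes were lower with MS275, -0.04 in pair 2 with 57 lower, 0.06 in pair 3 with 24 lower and -0.14 in pair 4 with 74 lower. Lower in all 4 pairs were 14 of the 77 genes (background 17.5%), and higher in all 4 pairs was none (background 19.2%). Without pair 3, 31 of the 77 genes were called lower with the pairs as a term and none higher (background 8.82% lower and 8.35% higher). Without pair 1 RPS28 alone was called, as higher (background 3.82% higher and 2.61% lower). Without pair 2 only RPL26 was called lower (background 2.9% lower and 3.65% higher), and without pair 4 only RPS2 (background 2.7% lower and 4.18% higher). With all pairs and DESeq2 size factors 4 were called lower (background 7.08% lower and 7.61% higher), and with TMM factors taken without the 77 genes 3 were (background 6.56% lower and 7.81% higher), none being higher in either. The count of called genes depended on which pair was left out.

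**Figure D2:**
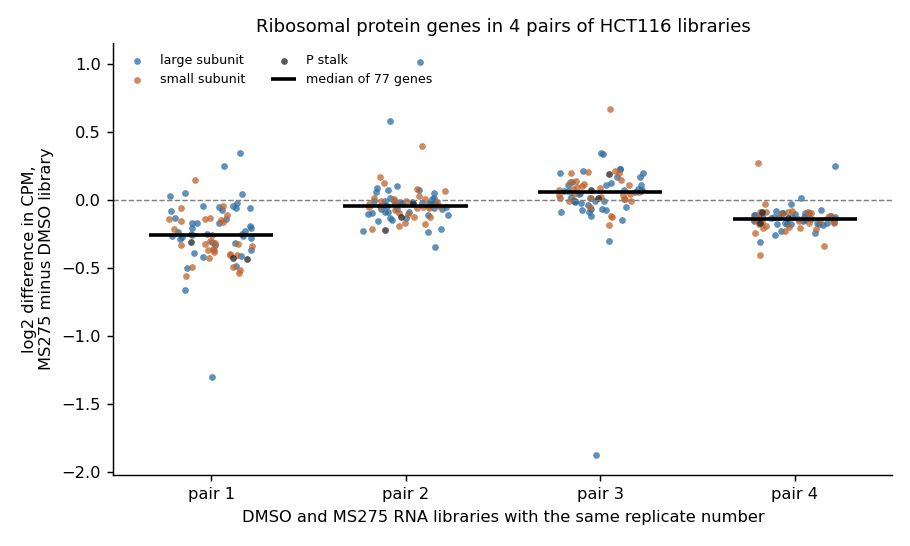
log2 difference in CPM between the MS275 and the DMSO library of the same replicate number for each of the 77 genes, coloured by subunit, with the median as a black line. The medians are -0.26, -0.04, 0.06 and -0.14 in pairs 1 to 4, and pair 3 is the one with a positive median.

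Of the genes named for their roles, RPLP0 had 3342, 3522, 5599 and 3577 CPM with DMSO and 2694, 3466, 5648 and 3270 with MS275 (log2 change with the pairs -0.11, SE 0.05, adjusted p = 0.18). RPLP1 and RPLP2, which form the flexible stalk on RPLP0, had log2 values of -0.14 and -0.16 and did not pass the test. RPSA, at the back of the small subunit and also known as the laminin receptor, was at -0.17 (SE 0.08, adjusted p = 0.16). RPL5 and RPL11, the partners of MDM2, were at -0.08 and 0.05. RPL11 had 780, 841, 1429 and 901 CPM with DMSO and 749, 873, 1674 and 882 with MS275, so that replicate 3 was the highest in each group. RPS6 was at -0.11, RPS19, mutated in Diamond-Blackfan anaemia, at -0.15, and RPS14, lost in a form of myelodysplastic syndrome, at -0.19 (SE 0.07, adjusted p = 0.11). RPL3 and RPL4, which shape the catalytic centre and the exit tunnel, were at -0.07 and -0.13, RPS3, at the entry of the message, at -0.06, and RPS27A, which is made as a fusion with ubiquitin, at -0.22. The X-linked RPS4X, RPL10, RPL36A and RPL39 lay between -0.09 and 0.03. None of these genes passed the test in either fit.

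A few of these genes stood out in 1 library or 1 pair. RPL22 had 404, 373, 448 and 414 CPM with DMSO and 164, 356, 469 and 376 with MS275, so that its log2 change of -0.35 came from MS275 replicate 1. RPL41 had 83.8, 98.9, 492 and 131 CPM with DMSO against 62.8, 200, 134 and 112 with MS275, and its DMSO replicate 3 lay far above the rest. RPS28, a small-subunit protein near the exit of the message, had 230, 246, 389 and 216 CPM with DMSO and 208, 323, 620 and 261 with MS275. It was higher in 3 of 4 pairs and lower in pair 1 (log2 change 0.30, SE 0.10, adjusted p = 0.063).

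Other genes of ribosome production were read from the same RNA fits. None of any list was called without the pairs. With the pairs, 4 of 7 tested fusion and paralog genes fell and none rose (median -0.20), led by RPL7L1 at -0.55 (SE 0.08, adjusted p = 0.0013), an RPL7-like factor of ribosome assembly, FAU at -0.29, which encodes RPS30 fused to a ubiquitin-like protein, and RPL36AL at -0.21. Of 14 further TOP-motif genes of translation, 4 fell and none rose (median -0.09). These were EEF1B2 at -0.27, EIF3E at -0.20, HNRNPA1 at -0.19 and EEF1A1 at -0.18. Of 28 ribosome biogenesis genes, 11 fell and none rose (median -0.19), led by UBTF at -0.65 (SE 0.07, adjusted p = 0.00023), the upstream factor of RNA polymerase I, NIP7 at -0.52 and NOP16 at -0.50. Of 77 mitochondrial ribosomal protein genes, which serve the separate ribosome of the mitochondrion, 23 fell and none rose (median -0.23), led by MRPL54 at -0.53, MRPL15 at -0.53 and MRPL16 at -0.51. CDKN1A, the cell-cycle inhibitor known as a target of deacetylase inhibitors, rose by 0.28 (SE 0.07, adjusted p = 0.017) in 4 of 4 pairs. For comparison, 6.55% of all genes were called lower in this fit.

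All 77 genes had a start peak in HCT116, against 92.7% of the 11198 protein-coding genes at 1 CPM or more, and RPL36A had 2, which makes 78 start peaks. Of these, 22 also reached the start of another protein-coding gene and cannot be assigned to 1 of them. In DMSO the start peaks held a median of 233 scaled H3K18cr reads, where scaling is that of the deposited table, against 157 over all 11162 start peaks of protein-coding genes, and 300.5 against 169 scaled H3K18ac reads. They were also wider, with a median of 3600 bases against 2550. Per kb of peak the medians were 66.7 against 57.0 for H3K18cr and 85.1 against 60.7 for H3K18ac. Over input, the median log2 ratio was 1.84 for H3K18cr, against 1.67 over all start peaks, and 2.20 for H3K18ac, against 1.75. RNA level per coding kb and the reads of the start peak had Spearman correlations of 0.42 (H3K18cr) and 0.40 (H3K18ac) across the genes.

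Relative to the rest of the library, H3K18cr at the starts of ribosomal protein genes fell with MS275. It passed the test as lower at 69 of 78 start peaks and as higher at none (limma on the deposited log2 values, adjusted p under 0.05), while 23% of the 40026 peaks tested and 59.8% of the 11153 start peaks tested were called lower, and 0.232% and 0.0359% higher. All 78 changes were negative. Their median was -0.76 (quartiles -0.87 and -0.59), against -0.20 over all peaks, -0.58 over all start peaks and -0.09 over peaks at no protein-coding start. The libraries of the treatments did not overlap at 74 of the 78 peaks, against 29.9% of all peaks and 66.4% of start peaks. Large-subunit genes were called lower at 38 of 44 peaks (median -0.69), small-subunit genes at 29 of 31 (median -0.81) and the P stalk at 2 of 3 (median -0.89). Peaks that reached no other start were called lower at 49 of 56 (median -0.75), and those shared with another start at 20 of 22 (median -0.80). Rescaling the libraries by TMM over the peaks left 48 called lower (background 11.1% of peaks and 32.6% of start peaks) and a median of -0.52, against 0.04 over all peaks and -0.34 over all start peaks. DESeq2 on the whole reads gave an adjusted p to 75 of the 78 and called 39 lower and none higher (background 20.3% of the 16746 peaks and 34.1% of the 8306 start peaks to which it gave an adjusted p), and with the replicate number as a term limma called 72 lower (background 26.1% and 65.8%).

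The largest falls on the log2 scale were at RPL10, which joins the large subunit late and is needed for the subunits to come together, where H3K18cr went from 240, 268 and 247 scaled reads with DMSO to 95.6, 102 and 143 with MS275 (chrX:154396801-154400250 on hg38, log2 change -1.17, SE 0.18, adjusted p = 3.39e-05). At RPL39, in the wall of the exit tunnel, it went from 126, 158 and 128 to 69.7, 53.8 and 60.3 (-1.17). RPS13, of the small-subunit face that meets the large subunit, went from 276, 274 and 291 to 135, 123 and 135 (-1.10). At these 3 peaks every MS275 library lay well below every DMSO library. RPS19 went from 369, 347 and 322 to 165, 164 and 189 (-1.0), and RPSA from 205, 205 and 212 to 103, 99.1 and 109 (-1.0). RPLP0 went from 299, 266 and 217 to 151, 125 and 123 (-0.96). The promoters of RPL10, RPL39 and RPS13 are among the sequences given above.

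Not called were 9 peaks. RPL38, which is known for its part in translating Hox messages, had 509, 508 and 419 scaled reads with DMSO and 417, 415 and 415 with MS275 (log2 change -0.20, SE 0.15, adjusted p = 0.423). Its peak of 12600 bases was the widest of all 78. RPLP1 had 162, 141 and 82.0 with DMSO and 117, 103 and 95.4 with MS275 (-0.23, adjusted p = 0.505). RPL11 had 172, 146 and 161 against 93.4, 115 and 146 (-0.46, adjusted p = 0.067), and RPL5 158, 152 and 190 against 109, 110 and 144 (-0.46, adjusted p = 0.056). RPL10A (-0.36), RPS3 (-0.38), RPL12 (-0.42), RPS4X (-0.48) and the smaller peak of RPL36A (-0.81) also missed the threshold. The groups overlapped at RPLP1 and RPL12, while at the other 7 peaks the lowest DMSO library lay above the highest MS275 library, at RPL11 with both rounding to 146. Of the other genes named by role, RPS6 (-0.69), RPS14 (-0.81), RPL3 (-0.67), RPL4 (-0.84), RPL22 (-0.92), RPS27A (-0.94) and RPL41 (-0.94) were called lower.

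H3K18ac also fell at these starts relative to the rest of the library. It was called lower at 66 of 78 start peaks and higher at none, while 16.3% of the 40122 peaks tested and 47.4% of the 11151 start peaks tested were called lower, and 0.264% and 0.0448% higher. All 78 changes were negative, with a median of -0.90 (quartiles -1.03 and -0.73), against -0.19 over all peaks, -0.64 over all start peaks and -0.07 over peaks at no protein-coding start. Groups did not overlap at 69 of the 78 peaks (background 23.1% of peaks and 54.1% of start peaks). Large-subunit genes were called lower at 36 of 44 peaks (median -0.85), small-subunit genes at 28 of 31 (median -0.92) and the P stalk at 2 of 3 (median -0.95). With TMM over the peaks 73 were called lower (background 16.5% of peaks and 48.1% of start peaks), the median was -0.65, and all peaks and all start peaks had medians of 0.06 and -0.39. The count rested on single libraries more than for H3K18cr, as it was 14 without MS275 replicate 2, 22 without MS275 replicate 3, 38 without DMSO replicate 2 and 43 without DMSO replicate 3, with 2 libraries then left in that group. Of all start peaks, 10.9, 14.6, 23.4 and 28.1% were called lower in these fits. With the replicate number as a term it was 9, and none was called higher (background 2.01% of peaks and 5.99% of start peaks), although same-numbered ChIP libraries of this mark did not deviate together and the numbers were not taken as pairs. The study's own test of the marks over starts was paired.

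RPL10 again changed most on the log2 scale, from 271, 336 and 499 scaled H3K18ac reads with DMSO to 155, 135 and 108 with MS275 (log2 change -1.44, SE 0.25, adjusted p = 1.43e-05). RPS13 went from 245, 330 and 488 to 196, 97.3 and 118 (-1.37). RPS2 went from 309, 406 and 620 to 196, 162 and 153 (-1.33), and RPL32, of the large subunit, from 230, 228 and 330 to 110, 109 and 99.6 (-1.28). DMSO replicate 3 was the highest of the 3 at each of these peaks. RPL38 had 483, 587 and 678 with DMSO and 487, 412 and 425 with MS275 (-0.39, adjusted p = 0.332), and RPLP1 109, 109 and 193 against 93.5, 90.7 and 71.3 (-0.64, adjusted p = 0.063). Also not called were RPL7, RPL10A, RPL15, RPL35, RPL37A, RPS10, RPS12, RPS24 and both peaks of RPL36A, with changes between -0.65 and -0.13. RPL5 (-1.04), RPL11 (-0.81), RPS3 (-0.71), RPL12 (-0.68) and RPS4X (-1.08), which were not called for H3K18cr, were called lower for H3K18ac.

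**Figure D3:**
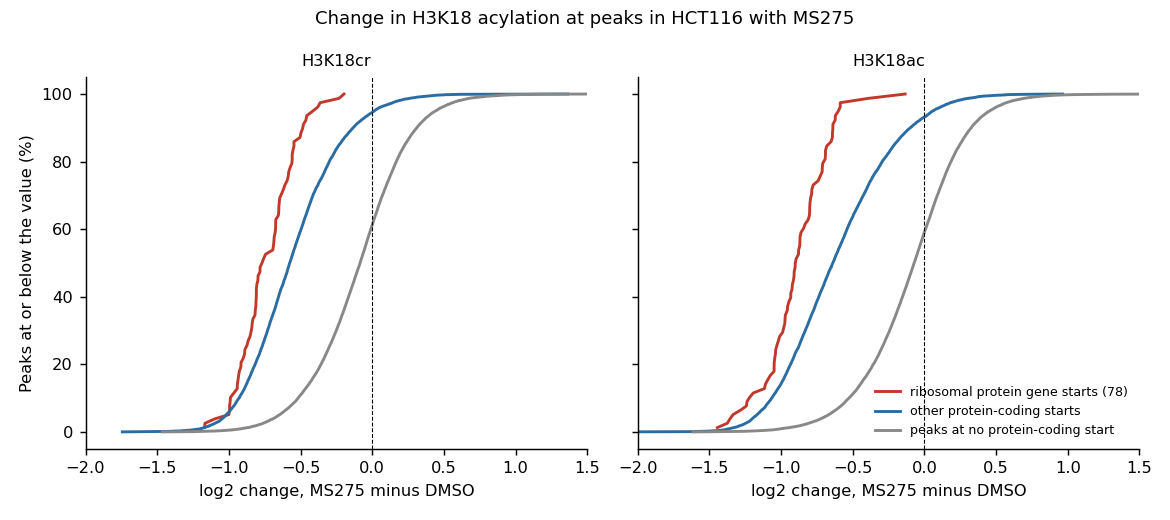
Cumulative share of peaks (%) at or below each log2 change with MS275, for H3K18cr and H3K18ac in HCT116, at the 78 ribosomal protein gene starts, at other protein-coding starts and at peaks away from starts. The curve of the ribosomal protein gene starts lies to the left of 0 throughout, with medians of -0.76 and -0.90.

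The start peaks of ribosomal protein genes hold many reads, and over all other start peaks the median change was larger in the upper than in the lower deciles of reads in DMSO, although for H3K18cr it did not grow further from decile 8 to decile 10. They were therefore set beside other start peaks of the same decile, with decile 10 the highest. The DMSO reads that set the deciles are also the baseline of the change. In deciles 10, 9 and 8 for H3K18cr, the median change was -0.81, -0.87 and -0.80 at the ribosomal protein genes and -0.71, -0.73 and -0.71 at the other start peaks, and in deciles 7 and 6 it was -0.65 and -0.69 against -0.65 and -0.63. For H3K18ac the medians of deciles 10, 9 and 8 were -1.0, -0.94 and -0.88 against -0.91, -0.89 and -0.83. In these deciles the difference from other start peaks was smaller than over all start peaks. It was larger in decile 1 for H3K18cr (-0.81 against -0.21, 3 peaks) and in decile 2 for H3K18ac (-0.85 against -0.32, 2 peaks), and none of these differences was tested. Away from the starts the median changes were smaller. Of 32 other peaks near these genes, 11 were called lower for H3K18cr (median -0.33) and 10 for H3K18ac (median -0.48), where 23% and 16.3% of all peaks were. Among the 15 of them at no protein-coding start, 3 were called for H3K18cr (median -0.18) and 0 for H3K18ac (median -0.21), against 8.8% and 4.31% of all peaks at no protein-coding start.

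Summed over the 78 start peaks, H3K18cr held 21862, 21013 and 18492 scaled reads in the DMSO libraries and 12148, 11867 and 12933 in the MS275 libraries. H3K18ac held 19825, 23878 and 34227 with DMSO and 16377, 12379 and 12400 with MS275. The groups did not overlap for either mark, and the means differed by -39.8% and -47.2%. The inputs held 5770 and 5637 scaled reads in the same peaks. Of the reads that fell in any protein-coding start peak, the 78 peaks took 0.862, 0.878 and 0.863% of H3K18cr with DMSO and 0.808, 0.809 and 0.783% with MS275. For H3K18ac these shares were 0.995, 0.992 and 1.07% and 0.899, 0.889 and 0.886%. The inputs gave 0.833 and 0.855%. The ratio to input was lower with MS275 at 74 of 78 peaks for H3K18cr, with the median log2 ratio going from 1.84 to 1.14, and at 76 of 78 for H3K18ac, from 2.20 to 1.34. Over all start peaks the ratio was lower at 86.3% and 86.8%, and the median went from 1.67 to 1.17 and from 1.75 to 1.19.

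**Figure D4:**
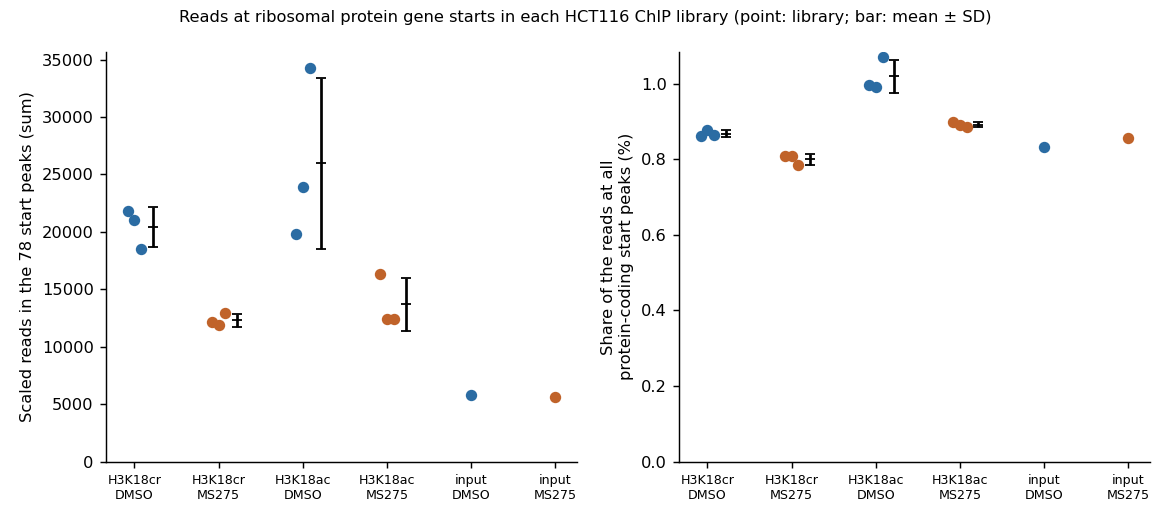
Scaled reads summed over the 78 start peaks (left) and their share of the reads in all protein-coding start peaks (right, %) in each HCT116 ChIP and input library, with points for libraries and bars for mean ± SD. All 3 MS275 libraries lie below all 3 DMSO libraries for both marks in both measures.

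Both marks were called lower at 61 of the 78 start peaks and neither at 4, which were those of RPL38, RPLP1, RPL10A and the smaller peak of RPL36A. Over all start peaks 42.9% were called lower for both marks and 35.6% for neither. The changes of the marks had a Pearson correlation of 0.57 across the 78 peaks, which share the treatment and scaling. Whether MS275 changed the marks to different degrees was asked with an interaction term. The term was called at 0 of 78 peaks and at 0 of 40266 peaks in all (0%), and at an unadjusted p under 0.05 it was met at 0 of the 78 (background 1.84%). The difference, H3K18cr minus H3K18ac, had a median of 0.18 against 0.06 over all start peaks, with a median standard error of 0.30, so that differences of this size were not detectable. RPS4X (0.60), RPL5 (0.58) and RPS2 (0.53) had the highest differences. In DMSO alone, scaled H3K18cr was below scaled H3K18ac at 77 of 78 start peaks, with a median log2 difference of -0.31, against -0.08 over all start peaks. Each mark was pulled down with its own antibody, so that this difference does not give the relative amounts of the marks. None of the 78, and 0 of 40266 peaks (0%), was called by limma, and 21 of the 78 had an unadjusted p under 0.05 (background 6.87%). With TMM over the peaks 8 of the 78 were called (background 0.902% of peaks and 2.84% of start peaks). RPL5 differed most, at -0.68, with 158, 152 and 190 scaled H3K18cr reads beside 216, 282 and 309 scaled H3K18ac reads, and its groups did not overlap.

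The changes in start peaks were then set beside the changes in messages. Across the 77 genes the log2 change in RNA, with the pairs in the fit, had a Spearman correlation of 0.22 with that of H3K18cr and 0.26 with that of H3K18ac. The RNA changes were small and depended on the pairs used, every peak change was negative, and some peaks also reached another start. These correlations therefore cannot show how far mark and message were linked. RPL10, whose start peak had the largest log2 fall in both marks, had 961, 1130, 1554 and 1224 CPM with DMSO and 871, 1116, 1543 and 1085 with MS275 (log2 change -0.09, SE 0.05, adjusted p = 0.30). RPS13 had 574, 490, 728 and 527 CPM with DMSO and 445, 474, 670 and 454 with MS275, a log2 difference of -0.19 (SE 0.06, adjusted p = 0.062). RPL38, whose peak changed least in H3K18cr, had 578, 558, 773 and 497 CPM against 486, 551, 868 and 464 (-0.05, SE 0.07, adjusted p = 0.68). For the genes whose RNA fell in the paired fit, relative H3K18cr changed by -0.85 at RPL9, -0.81 at RPS2 and -0.99 at RPL27A (log2). All 78 peaks had negative changes, with a median of -0.76, so a fall at these genes does not link the mark to their RNA. Among the other lists, start peaks were called lower for H3K18cr and H3K18ac at 7 and 6 of 7 for the fusion and paralog genes (medians -0.79 and -1.0), 11 and 13 of 14 for the TOP-motif genes (medians -0.70 and -0.97), 25 and 23 of 28 for ribosome biogenesis (medians -0.77 and -0.97) and 63 and 49 of 74 for the mitochondrial ribosomal proteins (medians -0.69 and -0.75). Of all start peaks, 59.8% were called lower for H3K18cr and 47.4% for H3K18ac.

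In mouse colon epithelium nearly all of these genes were marked at their starts, most of those with few RNA counts among them. A start peak was found for 76 of 77 genes in the H3K18cr list, with Rpl14 lacking one, and for 76 of 77 in the H3K4me3 list, with Rpl10 lacking one, against 81.3% and 88.8% of the 11122 protein-coding genes at 1 CPM or more. There were 78 start peaks in each list, of which 14 in each also reached another protein-coding start, and 75 of the H3K18cr peaks overlapped an H3K4me3 peak. H3K4me3 is the trimethylation of lysine 4 that marks active starts. Over input, the median log2 ratio of the start peaks was 1.22 and 1.59 in the H3K18cr replicates, below the 1.37 and 1.70 of all 10137 start peaks. For H3K4me3 it was 2.05, 2.79 and 3.18 in the 3 replicates, above the 1.84, 2.57 and 2.97 of all 12612 start peaks. The median peak stood at percentile 39.1 of start peaks for H3K18cr and at percentile 62.0 for H3K4me3. These ratios were given without a test.

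For H3K18cr the mean ratio ranged from 0.90 at Rps24 to 2.16, and 61 of the 78 peaks exceeded 1 in both replicates (79.5% of all start peaks did). Among the 5 highest were Rps7 at 2.08, Rps19 at 2.02, Rpl17 at 2.00 and Rpl7 at 1.99, and after Rps24 the lowest were Rps9 at 0.91, Rps27a and Rplp2 at 0.94 and Rpl3 at 0.97. For H3K4me3 the mean ratio ranged from 0.97 at a side peak of Rpl18 of 750 bases, whose wider start peak of 3150 bases was at 2.12, to 3.86 at Rpl32, followed by Rpl8 at 3.69 and Rpl6 at 3.48, and 77 of the 78 peaks exceeded 1 in all replicates (87.7% of all start peaks did). Across 75 genes, H3K18cr and H3K4me3 ratios correlated at 0.40 (Spearman).

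Most genes lowest in RNA had start peaks with ratios in the range of the others, and Rpl14, which had no H3K18cr start peak, was among the 15 lowest. Rps27, with 3 to 5 counts, had H3K18cr ratios of 1.71 and 1.16 and H3K4me3 ratios of 2.45, 2.94 and 3.39. At Rps6 the ratios were 1.5 and 1.94 for H3K18cr and 2.43, 3.31 and 3.54 for H3K4me3, while Rplp0, high in RNA, had 0.80 and 1.52, and 2.03, 2.98 and 3.24. The median was 1.5 for H3K18cr over the 14 of the 15 genes lowest in RNA that had a peak and 2.65 for H3K4me3 over all 15, against 1.41 and 2.73 over the others. RNA level had a Spearman correlation of -0.18 with the H3K18cr ratio and -0.04 with the H3K4me3 ratio across the genes. Levels of genes with repeated coding sequence are uncertain, and 14 of the 15 lowest genes had every window repeated. These correlations therefore cannot show how the marks relate to expression.

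**Figure D5:**
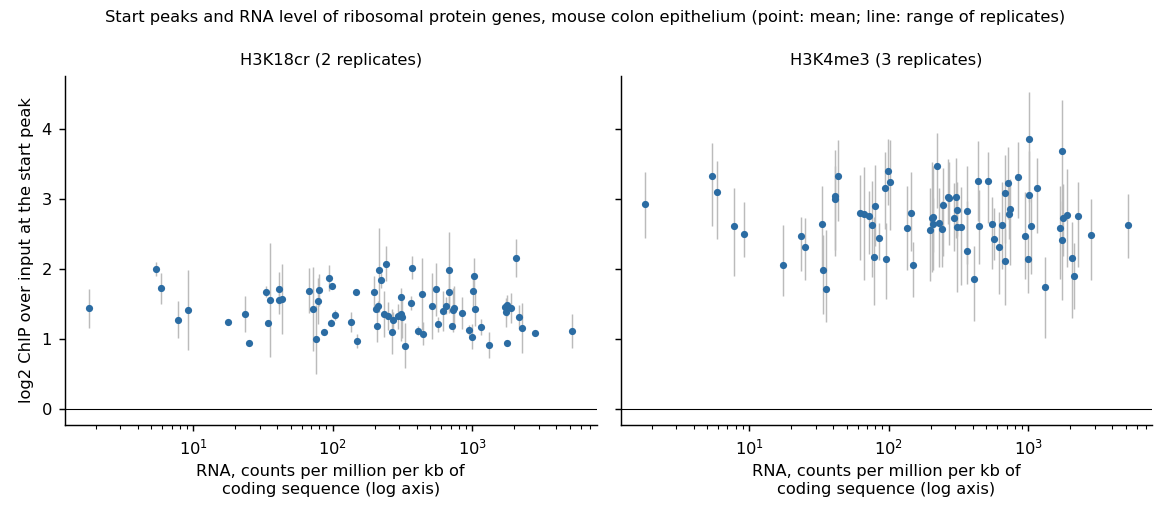
log2 ratio of ChIP to input at the start peak against RNA level (mean CPM per kb of coding sequence, log axis) for the ribosomal protein genes of mouse colon epithelium, for H3K18cr (2 replicates) and H3K4me3 (3 replicates); points are means and lines the range of replicates. The ratios of the lowest genes in RNA, such as Rps27 at 1.79, lie in the same range as those of the highest. RNA levels of genes with repeated coding sequence are uncertain.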

How the data were processed

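RNA was sequenced as poly(A) libraries made with a kit that keeps strand, and the strand used in counting is not given in the sources used here. The authors trimmed reads with Trim Galore (0.4.2 per the processing notes, with an older version also named for ChIP in the study's methods), mapped RNA reads (TopHat2 2.0.12 per the processing notes, HiSat2 in the study's methods) and ChIP reads (Bowtie2 2.2.5 per the notes, an older version in the methods), kept uniquely mapped reads, removed duplicates from the ChIP reads, and called 1 list of MACS peaks for all libraries of each table. The deposited RNA values are raw counts per gene. The deposited colon ChIP values are a signal, the reads in each peak times 1 factor per library, and the deposited HCT116 ChIP values are the log2 of such scaled reads. Division by each library's factor gave whole reads for 100% of the values. Intervals of counting error were not used.

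The test of HCT116 counts was that of edgeR 4.0.16 by quasi-likelihood, with genes kept by filterByExpr and TMM factors, and CPM are per TMM-scaled library except in levels per kb, which use total counts. HCT116 peaks with at least 10 scaled reads in at least 3 libraries were tested with limma 3.58.1 on the deposited log2 values, for each mark, for the interaction and for the marks in DMSO. Calls are at a Benjamini-Hochberg adjusted p under 0.05 over all features tested. All 77 human genes and all 78 HCT116 start peaks passed these filters. Colon values were not tested: they are log2 ratios of ChIP to input with 1 read added, against the same-numbered input for H3K18cr and the single input for H3K4me3. Same-numbered RNA libraries had deviations from the group means that correlated at 0.226, 0.151, 0.433 and 0.460 in pairs 1 to 4, so the numbers, which come from the titles, were taken to pair the libraries and the paired fit is printed beside the unpaired one. DMSO replicate 2 also correlated with MS275 replicate 4 (0.239) and DMSO replicate 4 with MS275 replicate 2 (0.219). Gene models were GENCODE v44 (hg38) and M21 (GRCm38), and levels are per kb of coding sequence in place of the exon length first intended.

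Alternatives were the pairing, DESeq2 1.42.0 and its size factors, TMM without the members or over the peaks, edgeR on whole reads, no filter, all peaks within 2 kb, other denominators or pseudocounts, and leaving out each library. The scripts were tested on simulated data. Genes were named by role, with those called or with the 5 highest and 5 lowest values in each comparison. Single values of 4 genes that this rule or the lists took in are not reported here. The genes, lists and tests were chosen with earlier results of these data known.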

Additional observations from a re-analysis of the deposited data

Results flagged for a closer look

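In groups of 4 RNA libraries, 1 library stood apart from the other 3 by Dixon's test in 15 of 66 groups examined over 32 named genes and the summed shares, where chance gives about 1 in 20 for independent groups. These groups are not independent, since all genes were measured in the same 8 libraries and some were named for their extreme values, and it was replicate 3 in all 15. With DMSO these were RPL13 at 3598 CPM, RPL28 at 1634, RPL41 at 492, RPL8 at 4530, RPL9 at 486, RPLP0 at 5599, RPS14 at 1554, RPS3 at 2751 and RPS3A at 1820. With MS275 they were RPL11 at 1674 CPM, RPL28 at 2074, RPL9 at 438, RPLP1 at 2501, RPLP2 at 1468 and RPSA at 2683. Each was the highest of its group. The same libraries held the most mitochondrial reads, whose part in these values was not tested.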

How the results depend on the processing

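The count of called RNA members was 0 without the pairs in every alternative, 3 with the replicate block, 4 with the block and DESeq2 size factors, 3 with the block and TMM without the members, and 1 to 31 when a pair was left out of the block (0 to 31 over all leave-one-out fits). For H3K18cr, DESeq2 called 39 of the 75 start peaks to which it gave an adjusted p, and the median was -0.52 with TMM over the peaks, -0.51 with DESeq2 and -0.52 with the block and TMM. For H3K18ac the replicate block left 9 of 78 called, and leaving out 1 library gave 14 to 76. The ChIP numbers were not taken as pairs (correlations of 0.108, 0.073 and 0.229 for H3K18cr and of -0.207, 0.046 and -0.134 for H3K18ac), and the block called 72 for H3K18cr. Between the marks in DMSO, TMM over the peaks called 8, and leaving out a replicate number gave 0 to 1. The share of colon counts on the genes was 2.50% of nuclear protein-coding counts and 2.39% without the 10 most abundant other genes. Of 132 values, 112 stayed within the spread between libraries or within 1.5 times the count and 20 moved; the small RNA median changed sign without DMSO replicate 3, MS275 replicate 1 or MS275 replicate 4. The causes were not tested. The block called 0 start peaks for the interaction and for the marks in DMSO. Precision is limited by 3 or 4 libraries a group, by 1 input per HCT116 treatment, and in colon by few counts at genes such as Rps27.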

Other observations

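The second HCT116 row named RPL41, at chr7:137513832-137514238 inside DGKI, held 503, 716, 957 and 1055 counts with DMSO and 433, 698, 607 and 672 with MS275, and did not pass the test (edgeR, log2 difference -0.31, adjusted p = 0.928). Rows named as ribosomal protein pseudogenes numbered 3 among those tested, and 0 of them were called in either fit.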
